A study of Homo sapiens with 11 samples.

Results

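The 10 genes examined here encode the proteins that hold RNA polymerase II (Pol II) in its promoter-proximal pause and those that release it. They were chosen by name, with earlier results of these data known. NELFA, NELFB, NELFCD and NELFE encode the subunits of the negative elongation factor NELF. SUPT4H1 and SUPT5H encode the subunits of the DRB sensitivity-inducing factor DSIF. CDK9, CCNT1 and CCNT2 encode the kinase and the cyclins of the positive elongation factor P-TEFb, and HEXIM1 encodes an inhibitor of P-TEFb. The RNA-seq tables held 9 of the 10 among 23167 genes. NELFE RNA is not analysed here.

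Shortly after initiation, DSIF and NELF bind Pol II and hold it near the promoter. P-TEFb then phosphorylates DSIF, NELF and the C-terminal domain of Pol II, upon which NELF leaves, DSIF travels on with the polymerase and productive elongation starts. A large share of P-TEFb is kept inactive by HEXIM proteins on the 7SK small nuclear ribonucleoprotein (snRNP), from which it is released and passed to the super elongation complex.

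The study asked how the histone variant macroH2A1.1 (mH2A1.1), a splice isoform of mH2A1, acts on transcription in MDA-MB231, an established human triple-negative breast cancer cell line. RNA-seq of total RNA gave 2 WT libraries, from cells given the INTERFERINE transfection reagent with no siRNA, and 2 mH2A1.1 KD libraries, from cells given an siRNA against mH2A1.1 at 11 nM, in each case 3 days after transfection. ChIP-seq peaks were called in untreated WT cells, from 1 library with an antibody against mH2A1.1 and 1 library with an antibody against total mH2A1. The WT control lacked a non-targeting siRNA, so the presence of an siRNA and the loss of its target cannot be told apart, and the labels do not say whether libraries came from separate cultures, so p-values measure only the spread between these libraries.

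WT replicates 1 and 2 summed to 9794674 and 7856892 counts on genes, and the KD libraries were shallower, at 5584962 for replicate 1 and 2309549 for replicate 2. By the paper's supplement, KD replicate 2 also had the lowest share of uniquely mapped reads of the RNA-seq libraries. KD replicate 2 had 30 counts on chromosome 21 and 0 on chromosomes 22 and X, so the 1722 genes of these chromosomes were left out of the tests. No gene of the 10 lies there. Levels are given as CPM, the counts scaled to a common library total with edgeR's TMM factors, and a gene was called at an adjusted p under 0.1 with a fold change over 1.5. MACROH2A1, the targeted gene, whose count does not separate the isoforms, was at 385 and 394 CPM in WT and at 274 and 300 CPM in KD (log2 fold change -0.44, standard error (SE) 0.173, adjusted p = 0.205 in edgeR and 0.182 in DESeq2). Of the markers of the line, VIM, CAV1, ANXA1 and CD44 stood at 466, 252, 160 and 132 RPKM on average in WT, a level that also divides by exon length, whereas the hormone receptor genes ESR1 and PGR were listed at 0 counts in every library and the epithelial genes CDH1, GATA3 and EPCAM averaged 0.396, 5.42 and 8.64 RPKM. Of the markers of other cell types, CD3E and ALB had at most 1 count in a library and PECAM1 averaged 0.418 RPKM in WT and 0.629 RPKM in KD, and PTPRC is not analysed here. The part of these cells in any result was not tested, and in bulk RNA fewer cells of a type and less RNA per cell cannot be told apart.

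Promoter sequences are shown for 5 of the genes that differed most in their peaks or RNA, as the sequence before the canonical start of each gene. HEXIM1 and SUPT5H had peaks of both antibodies over the start of a transcript, NELFB had an mH2A1.1 peak of 15000 bp at its start, CCNT2 had one of 3000 bp and CCNT1 had none. Each sequence covers the 250 bases before the RefSeq start (GRCh38.p14), 5′ to 3′ on the strand of the gene. The gene start used to count peaks is the outermost annotated one, which differs from the canonical start for SUPT5H, CCNT2 and CCNT1. Capitals mark the letters of the GC box (GGGCGG), the ETS core (CCGGAA), the TATA element (TATAAA) and the CCAAT element, searched on both strands, and matches may overlap. The windows are chr17:45148225-45148474 (plus strand) for HEXIM1, chr19:39445332-39445581 (plus strand) for SUPT5H, chr9:137255077-137255326 (plus strand) for NELFB, chr2:134918572-134918821 (plus strand) for CCNT2 and chr12:48716708-48716957 (minus strand) for CCNT1.
HEXIM1: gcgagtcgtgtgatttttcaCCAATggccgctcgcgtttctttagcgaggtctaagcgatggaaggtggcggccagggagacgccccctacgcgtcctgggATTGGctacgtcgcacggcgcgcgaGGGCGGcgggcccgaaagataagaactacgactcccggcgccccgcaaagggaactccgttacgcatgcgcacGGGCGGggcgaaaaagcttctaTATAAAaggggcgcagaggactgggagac
SUPT5H: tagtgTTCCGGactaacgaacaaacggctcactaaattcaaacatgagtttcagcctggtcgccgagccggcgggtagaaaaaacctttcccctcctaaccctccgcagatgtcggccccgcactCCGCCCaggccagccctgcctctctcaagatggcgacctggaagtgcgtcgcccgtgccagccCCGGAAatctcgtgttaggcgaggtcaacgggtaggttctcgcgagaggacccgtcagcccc
NELFB: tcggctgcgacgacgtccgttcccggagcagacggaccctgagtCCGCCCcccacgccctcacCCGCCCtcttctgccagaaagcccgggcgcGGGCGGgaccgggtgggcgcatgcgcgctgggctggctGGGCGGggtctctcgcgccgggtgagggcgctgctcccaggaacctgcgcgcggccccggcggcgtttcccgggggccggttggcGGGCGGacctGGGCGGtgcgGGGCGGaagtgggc
CCNT2: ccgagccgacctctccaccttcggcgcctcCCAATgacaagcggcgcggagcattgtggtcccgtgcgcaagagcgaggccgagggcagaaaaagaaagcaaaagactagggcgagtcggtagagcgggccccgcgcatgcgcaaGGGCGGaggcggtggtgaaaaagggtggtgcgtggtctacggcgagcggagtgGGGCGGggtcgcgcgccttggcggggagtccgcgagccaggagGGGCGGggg
CCNT1: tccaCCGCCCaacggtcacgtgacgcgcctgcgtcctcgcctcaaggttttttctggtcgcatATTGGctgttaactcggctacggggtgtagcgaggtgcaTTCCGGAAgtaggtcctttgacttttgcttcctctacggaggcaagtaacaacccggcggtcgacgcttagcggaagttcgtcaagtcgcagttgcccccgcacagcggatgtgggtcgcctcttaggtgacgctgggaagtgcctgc
HEXIM1 was the 1 gene of the 10 with a TATA element in this window, an element found in 5.21% of the 8962 tested genes with a RefSeq promoter. NELFB had 7 GC boxes and the highest GC content of the 5, at 78.4%, whereas CCNT1 had 1 GC box, a GC content of 59.2% and a pair of ETS cores that share letters on opposite strands. Over the 10 genes, a GC box was present in 9 and an ETS core in 6, against 68.1% and 25.9% of tested genes, and CCAAT was present in 3, against 35.4%. The shares of tested genes use the first RefSeq promoter listed for each gene. The 10 genes use the promoter nearest the canonical start, so the comparison is not like for like. These matches describe the letters of the windows and nothing of what binds there.

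In WT cells the 9 genes with RNA counts were all detected, and per kilobase of summed exons they spanned a 6.57-fold range. SUPT4H1, the small zinc-finger subunit of DSIF, was at 32.5 ± 2.64 RPKM (SD, n = 2 for this and the following WT levels). HEXIM1 stood next at 31.5 ± 0.119 RPKM, within the range of SUPT4H1, and NELFB followed at 28.6 ± 2.77 RPKM. SUPT5H and CDK9 overlapped each other at 19.8 ± 1.37 and 19.7 ± 0.434 RPKM, and NELFCD was at 17.4 ± 0.431 RPKM. The cyclins CCNT2 and CCNT1 could not be separated at 7.50 ± 0.596 and 7.47 ± 0.250 RPKM, near the middle of all tested genes, of which 52.1% and 52.0% lay lower. NELFA was lowest at 4.95 ± 0.287 RPKM, above 40.2% of tested genes. The order depends on the length used: per kilobase of the canonical transcript, an alternative chosen after seeing the data, NELFCD was first at 49.1 RPKM and SUPT5H second at 46.2 RPKM, while NELFA (11.4), CCNT2 (9.85) and CCNT1 (8.12 RPKM) remained the 3 lowest.

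Upon mH2A1.1 KD, RNA levels of the NELF subunit NELFB and the DSIF subunit SUPT5H were higher in both KD libraries, with log2 fold changes of 0.79 and 0.80, and those of the cyclins CCNT1 and CCNT2 were lower in both, with -0.58 and -0.42. edgeR called none of the 9 genes, as it called 0 of 10963 tested genes (0%), with 2 of the 9 at an unadjusted p under 0.05 in the higher direction (11.8% of all tested genes) and 1 in the lower (11.4%). DESeq2, the tool of the study, called NELFB and SUPT5H higher (5.52% of the 7765 genes it adjusted) and none lower (5.73%). With chromosomes 21, 22 and X kept, DESeq2 lost both calls and called CCNT1 lower instead (5.78% of 9262 genes called lower). Both KD libraries were above both WT libraries for 4 of the 9 (NELFB, SUPT4H1, SUPT5H and CDK9), against 32.5% of tested genes, and below both for CCNT1 and CCNT2, against 32.4%. The median log2 fold change was 0.20 over the 9 and 0.01 over all tested genes. With 9 genes, each of these counts differed from what the background share gives by fewer than 2 genes.

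**Figure D1:**
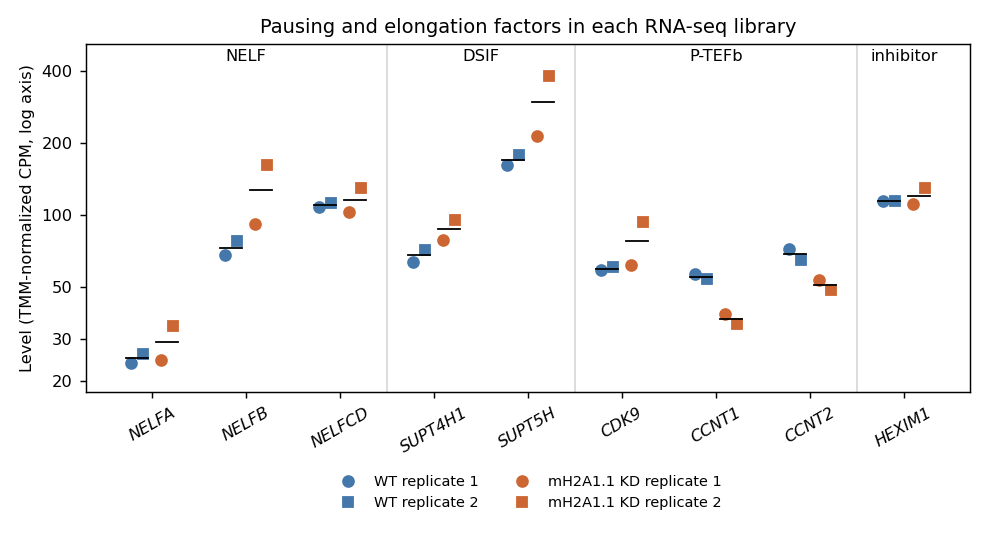
TMM-normalized CPM on a log axis for the 9 genes with RNA counts, with 1 point per library and black lines at the group means, grouped by complex. KD replicate 2 (orange squares) is the farther of the KD libraries from WT for all 9 genes, and its values run from 34.0 CPM for NELFA to 383 CPM for SUPT5H.

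Within NELF, the subunits did not move alike. NELFB, which links the lobes of the complex, was at 67.6 and 77.6 CPM in WT replicates 1 and 2 and at 91.3 and 162 CPM in KD replicates 1 and 2. Both KD libraries were above both WT libraries, and KD replicate 2 lay far above the other 3. Its log2 fold change was 0.79 (SE 0.284), with an adjusted p of 0.195 in edgeR's quasi-likelihood test and of 0.0946 in DESeq2. Leaving out KD replicate 2 reduced the log2 fold change of NELFB to 0.34. That is under the fold change needed for a call in either tool, whatever the p-value. The remaining KD library then has no replicate, so only the size of the change is given. The DESeq2 call also ended with all chromosomes kept (adjusted p = 0.147).

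NELFA, the subunit that contacts Pol II, was at 24.0 and 26.0 CPM in WT and at 24.6 and 34.0 CPM in KD. Its groups overlapped, since KD replicate 1 lay between the WT libraries. The log2 fold change was 0.20 (SE 0.232, adjusted p = 0.598 in edgeR). NELFCD, which encodes the NELF-C and NELF-D forms of 1 subunit, was at 108 and 112 CPM in WT and at 103 and 129 CPM in KD. The KD libraries fell on either side of WT, and the log2 fold change was 0.07 (SE 0.191, adjusted p = 0.829 in edgeR). NELFCD overlaps CTSZ on the opposite strand over 9448 bp. CTSZ had 2364, 2219, 1638 and 1282 counts in WT 1, WT 2, KD 1 and KD 2, and whether the default strand setting of the counting matched the library kit, and so kept reads of the pair apart, was not tested. NELFA was lower than WT by 0.02 on the log2 scale without KD replicate 2, and NELFCD by 0.09.

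In DSIF, SUPT5H, the large subunit whose C-terminal repeats are phosphorylated by P-TEFb, was at 162 and 178 CPM in WT and at 213 and 383 CPM in KD. As with NELFB, both KD libraries were above WT and KD replicate 2 stood apart. Its log2 fold change was 0.80 (SE 0.287), with an adjusted p of 0.194 in edgeR and 0.0760 in DESeq2. Without KD replicate 2 it was 0.33, again under the fold change needed for a call in either tool, whatever the p-value. With all chromosomes kept the DESeq2 adjusted p was 0.136. SUPT4H1, its partner, was at 63.6 and 71.4 CPM in WT and at 78.6 and 95.5 CPM in KD. The groups were again separate, by a smaller distance, with a log2 fold change of 0.36 (SE 0.193, adjusted p = 0.279 in edgeR and 0.401 in DESeq2). SUPT4H1 is crossed over its whole length by the antisense gene TSPOAP1-AS1, which had at most 16 counts in a library.

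In P-TEFb, the kinase gene and the cyclin genes lay on opposite sides of WT. CDK9 was at 58.4 and 60.2 CPM in WT and at 61.6 and 93.6 CPM in KD. KD replicate 1 was close to WT and KD replicate 2 was higher, which gave a log2 fold change of 0.37 (SE 0.236, adjusted p = 0.345 in edgeR and 0.425 in DESeq2) that was 0.06 without KD replicate 2.

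CCNT1, the cyclin T1 that also serves as the cofactor of HIV Tat, was at 56.4 and 53.8 CPM in WT and at 38.4 and 35.0 CPM in KD. Both KD libraries were lower than WT and close to each other. The log2 fold change was -0.58 (SE 0.187, adjusted p = 0.194 in edgeR and 0.170 in DESeq2), and it stayed between -0.67 and -0.52 when each library was left out in turn. DESeq2 with all chromosomes kept called it lower, at -0.59 with an adjusted p of 0.0328. CCNT2, which encodes the related cyclin T2, was at 72.0 and 64.3 CPM in WT and at 53.3 and 48.2 CPM in KD. The groups did not overlap, with a log2 fold change of -0.42 (SE 0.186, adjusted p = 0.227 in edgeR and 0.301 in DESeq2) and a range of -0.51 to -0.34 with each library left out. Of the 6 genes with separate groups, the cyclin genes were those whose KD libraries lay nearest to each other in relative terms. DESeq2 called neither with chromosomes 21, 22 and X left out. With every library kept, edgeR called neither in the fit with low counts filtered and no replicate block. Without that filter edgeR called CCNT1 lower (adjusted p = 0.0974), and likewise with the block (adjusted p = 0.0886). Both settings also called NELFB and SUPT5H higher. They called 2139 of all genes without the filter and 2208 of 10963 genes with the block.

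HEXIM1, the inhibitor, was at 114 and 115 CPM in WT and at 111 and 129 CPM in KD. One KD library lay below WT and the other above. The log2 fold change was 0.07 (SE 0.180), with an adjusted p of 0.826 in edgeR and 0.910 in DESeq2, and it changed sign to -0.04 without KD replicate 2.

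**Figure D2:**
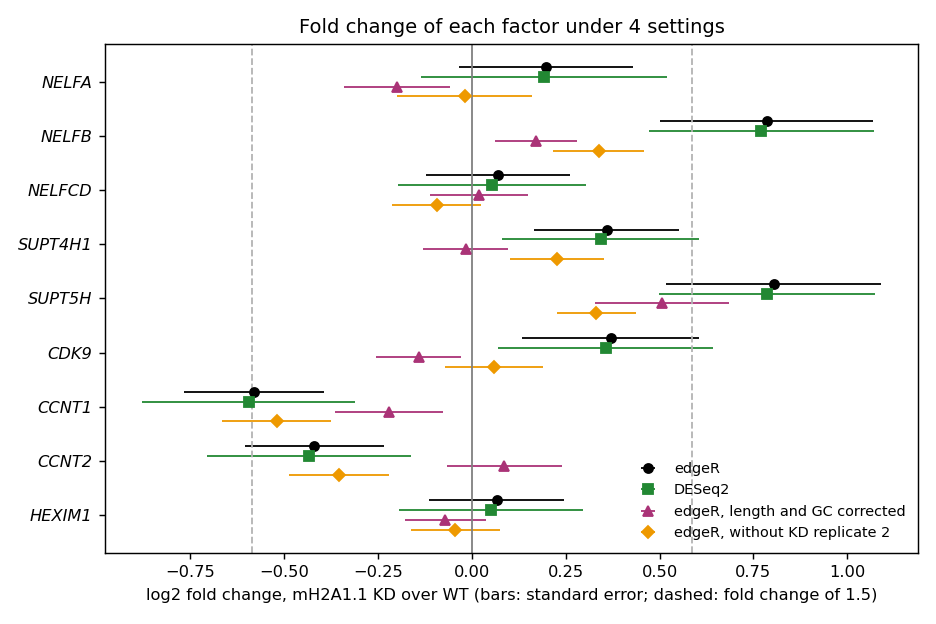
Log2 fold change of KD over WT for the 9 genes with RNA counts, with standard errors, from edgeR, DESeq2, edgeR with a length and GC correction, and edgeR without KD replicate 2. Dashed lines mark a fold change of 1.5. SUPT5H lies above 0 at 0.80, 0.79, 0.51 and 0.33 in the 4 fits, CCNT1 below 0 in all 4, and CDK9 and CCNT2 change sides with the correction.

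The fold changes of the 9 genes followed the GC content of their exons. The cyclin genes had the lowest GC content, 38.3% for CCNT2 and 40.6% for CCNT1, and NELFB and NELFA the highest, 63.4% and 61.6%. Across the 9 genes, Pearson's r between GC content and log2 fold change was 0.85, and across 10943 tested genes with an annotation it was 0.63. The genes share their 4 libraries, and r is a description across genes. Among all tested genes, the median log2 fold change was -0.48 at a GC content under 40% and 0.50 at 60% or more. CCNT2 and CDK9 were near the median of their band, at -0.42 beside -0.48 and at 0.37 beside 0.39, and CCNT1 was lower, at -0.58 beside -0.22. The GC content of CCNT1 was at the lower edge of its band, next to the band with a median of -0.48. NELFA was also below its band, at 0.20 beside 0.50. SUPT5H was the gene farthest above its band, at 0.80 beside 0.39, followed by NELFB at 0.79 beside 0.50.

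With smooth trends on length and GC content removed, DESeq2 called SUPT5H alone of the 9, at a log2 fold change of 0.60 (adjusted p = 0.0668), where 5.07% of 6888 genes were called higher, and edgeR gave 0.51 (adjusted p = 0.131). NELFB had 0.17 in edgeR, with an adjusted p of 0.351, and 0.21 in DESeq2, with an adjusted p of 0.545. CCNT1 remained lower at -0.22 in edgeR (adjusted p = 0.363), while CCNT2 turned to 0.09 and CDK9 to -0.14. The correlation with GC content was stronger in KD replicate 2, with r of 0.71 across all tested genes and 0.88 across the 9, than in KD replicate 1, with 0.38 and 0.80. KD replicate 2 was farther from the WT mean than KD replicate 1 for 9 of the 9 genes and for 80.1% of tested genes.

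**Figure D3:**
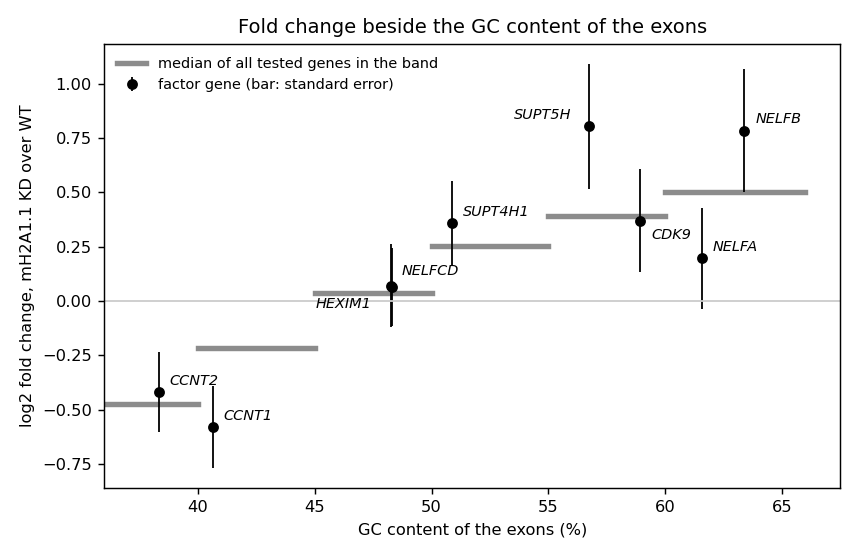
Log2 fold change of KD over WT against the GC content of the exons in percent for the 9 genes, with standard errors, and the median of all tested genes in 6 bands of GC content (grey). The grey medians climb from -0.48 to 0.50, and SUPT5H stands farthest above its band.

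The balance of partners within a complex was compared by ratios of RPKM, which were chosen after the values were seen. The summed cyclin T genes (CCNT1 plus CCNT2) were at 0.802 and 0.717 of the CDK9 level in WT and at 0.540 and 0.323 in KD, so both KD libraries had less cyclin T RNA per CDK9 RNA than either WT library. The NELFB to NELFCD ratio was 1.55 and 1.72 in WT and 2.21 and 3.11 in KD, and the SUPT5H to SUPT4H1 ratio was 0.616 and 0.606 in WT and 0.658 and 0.974 in KD. HEXIM1 to CDK9 was 1.62 and 1.58 in WT and 1.49 and 1.15 in KD. In each case the groups were separate. Per kilobase of the canonical transcript they were separate as well, but which partner was higher in WT changed for NELF and DSIF. With that length, WT ratios were 0.552 and 0.611 for NELFB to NELFCD and 1.03 and 1.01 for SUPT5H to SUPT4H1. With 2 libraries per group the exact permutation test gives a two-sided p of 0.333, the smallest this design allows. The partners differ in GC content: CDK9 is at 58.9% and the cyclins at 38.3% and 40.6%, NELFCD is at 48.3% and NELFB at 63.4%, SUPT4H1 is at 50.9% and SUPT5H at 56.8%, and HEXIM1 is at 48.3%. The part of the GC trend in the ratios was not tested.

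In WT cells, mH2A1.1 peaks lay at the start of 7 of the 10 genes, counted where a peak reached within 500 bp of the gene start, against 46.9% of 10943 tested genes. At 6 of the 10 genes, the mH2A1.1 peak at the start touched a peak of total mH2A1, against 26.2% of all tested genes. Of the 7 with a peak at the start, CCNT2 was the one whose peak did not. A total mH2A1 peak lay at the gene start itself at 1 gene of the 10, HEXIM1 (18.4%). All peaks were called in steps of 3000 bp on 1 library per antibody, so presence has no replicate check.

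The NELF genes NELFA, NELFB and NELFCD had mH2A1.1 peaks of different widths at their starts. At NELFA (chr4:1982717-2041903, minus strand), a peak of 36000 bp at chr4:2034001-2070000 covered the gene start, and a separate peak of 12000 bp lay inside the gene at chr4:2007001-2019000, over the start of the canonical transcript at 2008974. At NELFB (chr9:137255327-137273542, plus strand), a peak of 15000 bp ended 673 bp past the start, at chr9:137241001-137256000, and another covered the end of the gene, so that 50.6% of the gene body was covered. Of the mH2A1.1 peaks at the starts of tested genes, 48.1% were at least as wide as the one at the NELFB start. NELFCD (chr20:58981208-58995133, plus strand) lay wholly inside a peak of 33000 bp at chr20:58965001-58998000. No total mH2A1 peak reached the start of any of them. At NELFE (chr6:31952087-31959038, minus strand) no peak was listed within 100000 bp. In the 2 Mb around this gene, the lists used here held 1 mH2A1.1 and 1 total mH2A1 peak, where the genome average for that length was 19.9 and 15.7, so nothing is read from the absence of a peak at NELFE.

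The DSIF genes differed from each other. SUPT5H (chr19:39436156-39476670, plus strand) was covered over 56.4% of its body by mH2A1.1, in a peak of 30000 bp at chr19:39429001-39459000 that held the gene start and the canonical start at 39445582. A total mH2A1 peak of 6000 bp at chr19:39441001-39447000 lay over that canonical start, whose promoter is printed above. SUPT4H1 (chr17:58345175-58353093, minus strand) had no mH2A1.1 peak over any of its bases, and the nearest was 24093 bp from its start. The canonical start of SUPT5H was therefore under peaks of both lists and that of SUPT4H1 under neither.

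Among the 10 genes, P-TEFb genes had both the widest and the narrowest mH2A1.1 peak at a gene start. CDK9 (chr9:127785679-127790792, plus strand) lay wholly inside an mH2A1.1 domain of 132000 bp at chr9:127674001-127806000, and 2.80% of the mH2A1.1 peaks at the starts of tested genes were at least as wide. A total mH2A1 peak of 66000 bp inside this domain ended 679 bp before the CDK9 start. CCNT2 (chr2:134918235-134959342, plus strand) had a single peak of 3000 bp, the smallest size, at chr2:134916001-134919000, which covered 1.86% of its body. Peaks of this size made up 29.4% of those at the starts of tested genes. CCNT1 (chr12:48688458-48716998, minus strand) had none, and its nearest mH2A1.1 peak, at chr12:48723001-48726000, lay 6003 bp before its start.

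HEXIM1 (chr17:45148475-45152099, plus strand), a gene of 1 exon, was the 1 gene with peaks of both lists at the gene start. An mH2A1.1 peak of 57000 bp at chr17:45147001-45204000 covered it whole, and a total mH2A1 peak of 30000 bp at chr17:45120001-45150000 covered its start and 42.1% of its body. Over the 7 peaks at starts, the median width was 33000 bp, against 12000 bp at tested genes. The median mH2A1.1 coverage of the gene body was 42.1% over the 10 genes, with 3 of the 10 uncovered, against 8.29% over tested genes, of which 27.7% were uncovered. Without NELFE, the median was 50.6% and 2 of 9 genes were uncovered.

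**Figure D4:**
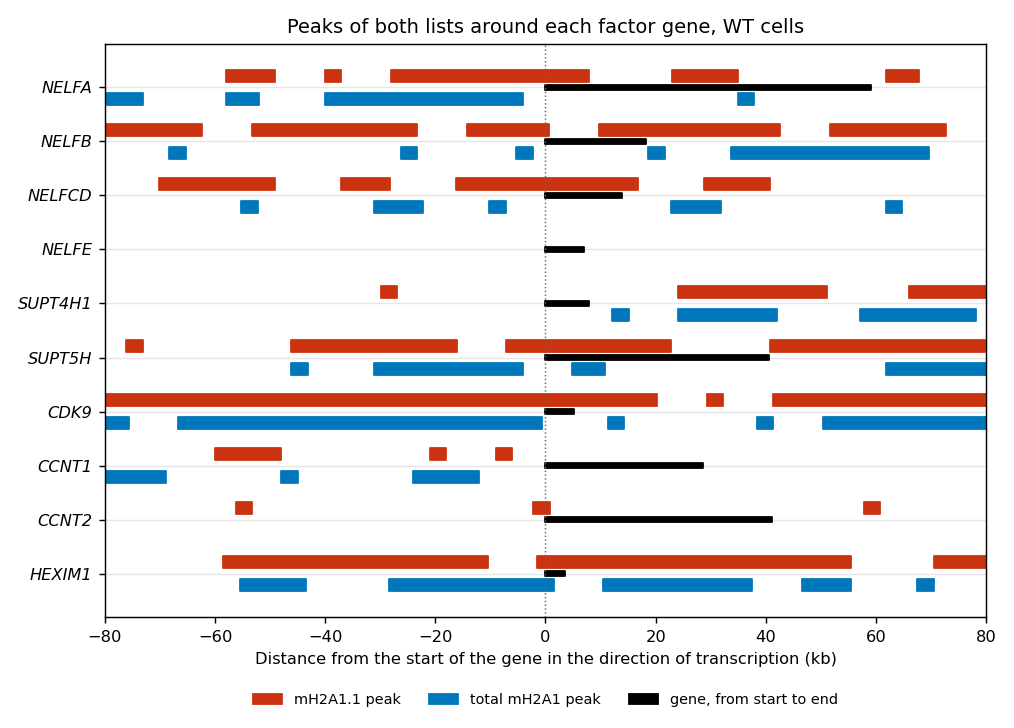
Peaks of mH2A1.1 (red) and of total mH2A1 (blue) within 80 kb of the start of each of the 10 genes, drawn in the direction of transcription, with the gene in black. The 132000 bp domain over CDK9 runs off the left edge, CCNT2 has 1 narrow peak at its start, and no red peak lies over CCNT1, SUPT4H1 or NELFE.

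Set beside the RNA, 3 of the 4 genes whose KD libraries were both higher had an mH2A1.1 peak at the start (NELFB, SUPT5H and CDK9, but not SUPT4H1). So did 1 of the 2 whose KD libraries were both lower (CCNT2, but not CCNT1) and all 3 whose groups overlapped (NELFA, NELFCD and HEXIM1). Of all tested genes, 46.9% had such a peak, and with so few genes nothing is read from these counts. The largest covered fractions, 100% for NELFCD, CDK9 and HEXIM1, went with log2 fold changes of 0.07, 0.37 and 0.07.

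The other genes of the pathway, 47 genes in 6 lists, were represented by 42 in the tables and 39 in the tests. edgeR called none of the 39, with 4 at an unadjusted p under 0.05 in the higher direction (11.8% of all tested genes) and 5 in the lower (11.4%). DESeq2 called ELOB higher (5.52%) and AFF4, ELL2 and POLR2M lower (5.73%). With all chromosomes kept DESeq2 called ELL2 alone. Without KD replicate 2 its log2 fold changes were 0.21 for ELOB, -0.56 for ELL2, -0.40 for AFF4 and -0.67 for POLR2M. Each was smaller in size than with that library. Both KD libraries were above WT for 9 of the 39 (32.5%) and below for 16 (32.4%), and the median log2 fold change was -0.07.

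Among partners of P-TEFb, ELL2 and AFF4 of the super elongation complex were lower in both KD libraries. ELL2, an elongation factor that suppresses transient pausing, was at 202 and 187 CPM in WT and at 132 and 75.6 CPM in KD (log2 fold change -0.91, adjusted p = 0.0440 in DESeq2). AFF4, the scaffold that binds P-TEFb, was at 606 and 576 CPM in WT and at 447 and 303 CPM in KD (log2 fold change -0.67, adjusted p = 0.0921 in DESeq2). KD replicate 2 was the lowest library for both genes. In edgeR the values were -0.89 for ELL2 and -0.65 for AFF4 (adjusted p = 0.194 for each). Without KD replicate 2 the edgeR values were -0.56 and -0.40, and after the length and GC correction they were -0.41 and -0.23. The DESeq2 calls ended with the correction (adjusted p = 0.177 for ELL2 and 0.470 for AFF4). Without KD replicate 2 both genes were under the fold change needed for a call, whatever the p-value. With all chromosomes kept AFF4 had an adjusted p of 0.108 in DESeq2. ELL, the paralog of ELL2, had the highest value of the 7 tested genes of this list, at 0.55. In the 7SK snRNP, values ran from -0.54 for LARP7, which protects the 3′ end of 7SK RNA, to 0.27 for MEPCE, which caps its 5′ end, and no gene was called.

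Among elongation and termination factors, ELOB, which encodes elongin B, was at 78.0 and 88.9 CPM in WT and at 96.2 and 262 CPM in KD (log2 fold change 1.07, adjusted p = 0.0575 in DESeq2). Its value came mainly from KD replicate 2, without which it was 0.21 in edgeR. POLR2M, which encodes the Pol II-associated protein Gdown1, was at 33.1 and 25.2 CPM in WT and at 18.3 and 6.62 CPM in KD, the last from 14 counts (log2 fold change -1.16, adjusted p = 0.0764 in DESeq2). Both KD libraries were below WT, and the edgeR value was -1.09, or -0.68 without KD replicate 2. Unlike those of ELL2 and AFF4, that value is still beyond the fold change needed for a call. The remaining KD library has no replicate, so only the size is given. Its locus has read-through transcripts, between which the counting could divide reads.

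Neither edgeR, with low counts filtered, no replicate block and every library kept, nor DESeq2 called the other ends of the lists. INTS11, the endonuclease of the Integrator complex, had a log2 fold change of 0.82. In the PAF1 complex, which travels with elongating Pol II, values ran from -0.39 for RTF1 to 0.64 for PAF1. Recruiters and kinases ran from -0.44 for CCNH, the cyclin of the CDK-activating kinase, to 0.57 for JMJD6. TCEA1, which encodes the elongation factor TFIIS, was the lowest of the other elongation factors at -0.64.

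**Figure D5:**
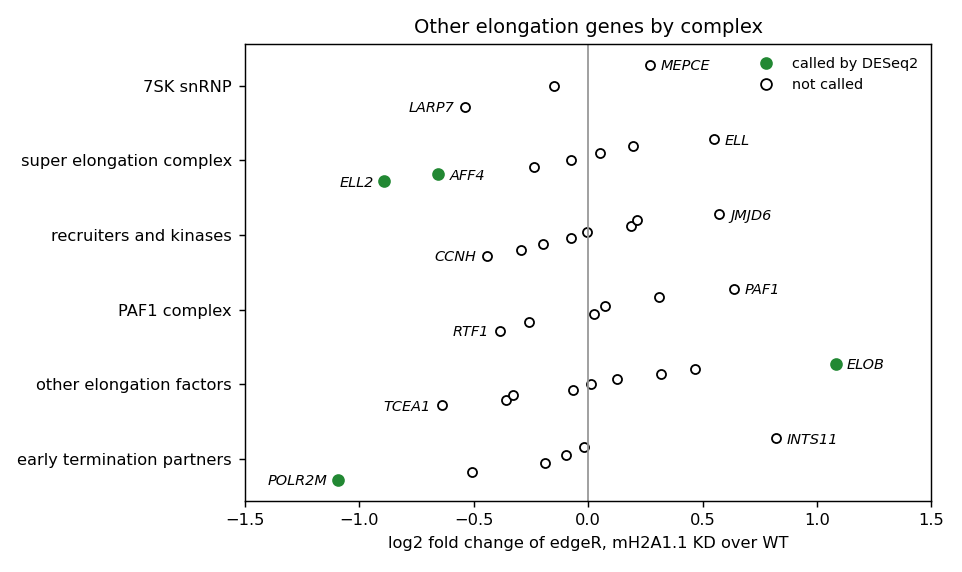
Log2 fold change of KD over WT from edgeR for the 39 tested genes of the 6 other lists, with 1 point per gene. Filled points are the 4 genes that DESeq2 called, and names are given for these and for both ends of each list. The lists spread to both sides of 0, from -1.09 for POLR2M to 1.08 for ELOB.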

How the data were processed

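The deposited RNA-seq values are counts per gene, which the authors made by alignment to GRCh38 with STAR 2.5.1, removal of poorly mapped and duplicate reads and htseq-count at default parameters. The annotation is not given in the sources used here. The default of htseq-count keeps reads by strand. The other deposited values are start and end positions of peaks, which the authors called against the input with normR on 1 library per antibody, with no usable score. The input and the 4 promoter capture Hi-C samples are not analysed here.

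Genes were matched to GENCODE release 44 (23061 of 23167, with 0.120% to 0.176% of counts unmatched). R 4.3.3 and edgeR 4.0.16 tested the counts outside chromosomes 21, 22 and X (filterByExpr, TMM, quasi-likelihood test, Benjamini-Hochberg adjustment over 10963 genes), which was tested on simulated data. DESeq2 1.42.0, RLE factors, no filter, all chromosomes, a length and GC correction (lowess span 0.3), a replicate block, no fold threshold and leaving out each library were alternatives. RPKM used summed exon length. SE of edgeR came from its F statistic. Log2 CPM correlated across genes at r = 0.994 between WT and 0.960 between KD libraries, with a biological coefficient of variation of 0.166. Counting error and replicate number limit the precision.

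A peak was at a start if it reached within 500 bp, and common if it shared 1 bp with the other list. The named genes are the 10, MACROH2A1, and, of the 6 other lists, the genes called by either tool and both ends of each list. Genes and lists were chosen with earlier results of these data known. Sequences are from RefSeq (GRCh38.p14), where all 10 genes matched.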

Additional observations from a re-analysis of the deposited data

How the results depend on the processing

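edgeR called none of the 9 genes with TMM or RLE factors, with all chromosomes, with the length and GC correction or without a fold threshold. The other settings gave these counts of the 9 genes, of the 39 other pathway genes and of all genes. DESeq2 called 2, 4 and 874 of 7765, and no filter on low counts gave 3, 7 and 2139. DESeq2 with all chromosomes called 1, 1 and 945 of 9262, and DESeq2 with the correction 1, 0 and 528 of 6888. The 1 with all chromosomes was CCNT1, called lower, and the 1 with the correction was SUPT5H, called higher. edgeR with the correction called 680 of all genes. DESeq2 without KD replicate 2, chosen after seeing the data, called 0, 0 and 383. With each library left out in turn, edgeR called 0 to 4 of the 9, 0 to 13 of the 39 and 2 to 4744 of all genes. The 4 (NELFB, SUPT5H and CDK9 higher, CCNT1 lower) were called without KD replicate 1, where KD replicate 2 stands alone and is assumed to vary like WT.

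With a replicate block, edgeR called 3 of the 9 (NELFB and SUPT5H higher, CCNT1 lower), 7 of the 39 and 2208 of 10963 genes. Same-numbered libraries deviated together at r = 0.27 over 2 pairs, which does not establish a pairing.

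Of 117 recomputed log2 fold changes of the 9 genes, 87 kept direction and side of the threshold, 14 passed it and 16 changed sign, none of them a called value. The length and GC correction turned, in edgeR and DESeq2, NELFA to -0.201 and -0.116, SUPT4H1 to -0.0166 and -0.00743, CDK9 to -0.142 and -0.0983, CCNT2 to 0.0863 and 0.135 and HEXIM1 to -0.0705 and -0.0398. With each library left out in turn, edgeR gave -0.0188 to 0.438 for NELFA, -0.0942 to 0.224 for NELFCD and -0.0437 to 0.172 for HEXIM1, the lowest in each case without KD replicate 2, where DESeq2 gave -0.0249, -0.0981 and -0.0473. The cause was not tested.

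mH2A1.1 peaks at starts numbered 7 of 10 under the other windows and start definitions, 6 where they had to touch the other list, and 3 where the other list had to cover 50% of the peak. Total mH2A1 peaks at starts numbered 2 within 1000 bp, 3 within 3000 bp, 2 over all annotated starts and 2 at canonical starts.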
